A study of Mus musculus with 12 samples.

Results

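The Th2 cytokine locus of mouse chromosome 11 was examined in ATAC-seq libraries of thymic invariant natural killer T (iNKT) cells. It comprises Il4, Il13 and Il5, which encode the cytokines of type 2 immunity, and Rad50, the DNA repair gene that lies between Il13 and Il5. Every region of the deposited table that overlapped the gene body of Il4, Il13, Rad50 or Il5, with 10 kb on either side, was taken, which gave 28 of 63309 regions. The rule used position only and no measured value. Of the 28 regions, 14 lay within 10 kb of Il4, 10 within 10 kb of Il13, 7 within 10 kb of Rad50 and 3 within 10 kb of Il5, so that some were shared by neighboring genes. They are numbered 1 to 28 in order along the chromosome.

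The iNKT1, iNKT2 and iNKT17 subsets came from 8 to 9 week old, untreated C57BL/6 mice and from Hivep3-/- mice on the C57BL/6 background. Hivep3-/- is a germline deficiency of the zinc finger protein Hivep3, so every cell of those animals carried the mutation and not only the iNKT cells. There were 2 libraries per subset and genotype and 12 in all. Subsets were sorted from pooled thymi, combined for transposition and sorted again by ICOS and CD138, without the CD122 and Izumo1r used in the first sort. The sample titles number single mice, whereas the methods describe pooled thymi, so the tests measure the spread between these libraries, which may be partly technical.

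Il4, Il13 and Il5 are controlled together in T cells, although Il5 lies on the far side of Rad50 from the other two. The 3′ introns of Rad50 hold a locus control region, a set of DNase hypersensitive sites that acts on the cytokine genes and not on Rad50 itself, and further conserved elements lie between Il4 and Il13, within Il4 and 3′ of Il4. iNKT2 cells are the thymic subset known for IL-4 production, iNKT1 cells for interferon gamma and iNKT17 cells for IL-17, and thymic iNKT cells are known to open cytokine loci before they are stimulated.

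Each value is the log2 of normalized transposase insertions per kilobase in a region of 500 bp, a measure of how open the chromatin is. A region counts as accessible at a linear mean of at least 5. Group means were compared in limma with Benjamini-Hochberg adjustment over all regions tested, and a call required a change of 3-fold or more together with an adjusted p below 0.1. With 2 libraries against 2, an exact permutation test of a single region cannot fall below p = 0.333, so the calls rest on the spread shared across all libraries. Insertion counts cannot be read from the normalized values, and how many different values a library holds below its median, which was taken to grow with depth, was lowest in the Hivep3-/- iNKT17 libraries (85 and 73) and highest in a Hivep3-/- iNKT1 library (491). The subset labels were checked on marker promoters. In C57BL/6 mice, 5 of 6 iNKT1, 4 of 6 iNKT2 and 6 of 6 iNKT17 marker genes had their highest promoter accessibility in the subset they mark, and none of 9 B cell, myeloid and CD8 or double positive thymocyte markers had a promoter region in the table. The Hivep3 promoter region was between 6.40 and 6.68 in the 6 group means and 0 of 21 Hivep3 regions were called between the genotypes. The deleted part of the gene is not given in the sources used here, so this does not check the genotype.

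The 8 sequences below are shown because their regions were among those that separated the subsets most, or because they are the promoters of the cytokine genes. They were read from RefSeq GRCm38.p6, the assembly that corresponds to mm10, and capitals mark matches, on either strand, to short consensus letters. The letters searched were AGATAA or AGATAG or TGATAA or TGATAG for GATA factors, GGAAA for NFAT, TGACTCA or TGAGTCA for AP-1, TTCNNNNGAA for STAT6, AACCACA for Runt, AGGTGTGA for T-box and GGANTTTCC for NF-κB, whose letters include an NFAT match. Both GATA and Runt letters are present in 1 run of capitals of region 27, and STAT6 and NFAT letters in 1 run of the Il4 promoter. The first 5 lines give the middle 240 bases of each region on the + strand. The last 3 give the bases just upstream of the start site, read in the direction of the gene: the Il4 window shares only its last bases with region 8, that of Il13 lies almost entirely in region 17, and that of Il5 lies between region 26 and the gene.
Region 16, Il13 exon 2 (chr11:53633195-53633434, + strand): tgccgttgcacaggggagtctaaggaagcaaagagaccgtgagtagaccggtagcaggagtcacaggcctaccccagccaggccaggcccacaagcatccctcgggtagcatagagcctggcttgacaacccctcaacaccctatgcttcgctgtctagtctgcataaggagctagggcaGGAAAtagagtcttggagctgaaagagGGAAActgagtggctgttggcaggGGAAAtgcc
Region 19, Rad50 intron 24 (chr11:53651018-53651257, + strand): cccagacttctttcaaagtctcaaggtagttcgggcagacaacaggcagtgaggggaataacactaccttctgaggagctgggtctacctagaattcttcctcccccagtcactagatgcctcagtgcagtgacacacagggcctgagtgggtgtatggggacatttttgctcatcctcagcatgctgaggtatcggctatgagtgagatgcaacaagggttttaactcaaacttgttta
Region 24, Rad50 exon 9 (chr11:53692165-53692404, + strand): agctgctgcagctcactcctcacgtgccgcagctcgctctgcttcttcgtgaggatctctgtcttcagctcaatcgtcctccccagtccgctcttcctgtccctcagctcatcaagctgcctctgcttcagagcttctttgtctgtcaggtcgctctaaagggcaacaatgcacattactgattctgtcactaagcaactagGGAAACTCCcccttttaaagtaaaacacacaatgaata
Region 26, 5′ of Il5 (chr11:53719768-53720007, + strand): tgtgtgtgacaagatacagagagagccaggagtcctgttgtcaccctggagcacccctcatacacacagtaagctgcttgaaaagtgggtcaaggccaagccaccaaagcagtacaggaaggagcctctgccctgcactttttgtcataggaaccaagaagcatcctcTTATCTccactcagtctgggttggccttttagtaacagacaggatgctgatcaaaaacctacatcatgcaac
Region 27, 3′ of Il5 (chr11:53726711-53726950, + strand): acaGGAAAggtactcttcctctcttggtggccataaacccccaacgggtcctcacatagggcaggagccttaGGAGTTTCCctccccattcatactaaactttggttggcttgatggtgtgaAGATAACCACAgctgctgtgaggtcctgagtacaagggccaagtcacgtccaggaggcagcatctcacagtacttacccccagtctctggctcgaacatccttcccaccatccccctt
Il4 promoter (chr11:53618670-53618915, - strand): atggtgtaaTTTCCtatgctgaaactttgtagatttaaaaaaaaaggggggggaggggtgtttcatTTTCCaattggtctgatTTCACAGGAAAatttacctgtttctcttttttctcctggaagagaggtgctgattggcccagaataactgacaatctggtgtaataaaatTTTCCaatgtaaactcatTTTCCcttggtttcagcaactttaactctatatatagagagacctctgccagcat
Il13 promoter (chr11:53634703-53634952, - strand): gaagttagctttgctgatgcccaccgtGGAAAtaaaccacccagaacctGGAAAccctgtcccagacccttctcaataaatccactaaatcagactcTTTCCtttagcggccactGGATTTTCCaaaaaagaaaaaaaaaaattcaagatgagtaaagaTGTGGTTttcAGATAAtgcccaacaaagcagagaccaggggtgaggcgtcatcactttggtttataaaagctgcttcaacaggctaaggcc
Il5 promoter (chr11:53720544-53720793, + strand): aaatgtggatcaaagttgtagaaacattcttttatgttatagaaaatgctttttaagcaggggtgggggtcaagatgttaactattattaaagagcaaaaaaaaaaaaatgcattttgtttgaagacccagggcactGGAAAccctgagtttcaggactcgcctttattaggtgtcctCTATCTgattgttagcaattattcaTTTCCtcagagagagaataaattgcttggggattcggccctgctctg

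GATA letters were found in 19 of 28 regions of the locus (67.9%), against 49.2% of all 63309 regions of the same length. NFAT letters were found in 23 (82.1% against 80.0%), AP-1 letters in 3 (10.7% against 11.5%), STAT6 letters in 1 (3.57% against 11.5%), Runt letters in 4 (14.3% against 17.4%) and T-box letters in 1 (3.57% against 2.91%). NF-κB letters were found in regions 17, 24 and 27 (10.7% against 2.45%). The mean GC content was 50.6% ± 5.92 (SD) in the locus and 51.6% ± 8.79 over all regions. Matches of this kind describe the letters of a window and are not binding sites.

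In C57BL/6 mice the locus was most open in iNKT2 cells, nearly as open in iNKT1 cells and least open in iNKT17 cells. The mean log2 accessibility over the 28 regions was 4.73 and 4.68 in the iNKT2 libraries, 4.25 and 4.20 in the iNKT1 libraries and 3.41 in each iNKT17 library. The highest subset mean belonged to iNKT2 in 18 regions, to iNKT1 in 8 and to iNKT17 in 2, and the lowest to iNKT17 in 23 and to iNKT1 in 5. There were 26 accessible regions in iNKT2, 24 in iNKT1 and 22 in iNKT17 cells. In bulk libraries of a sorted subset, fewer cells with an open site and a less open site in each cell cannot be told apart.

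**Figure D1:**
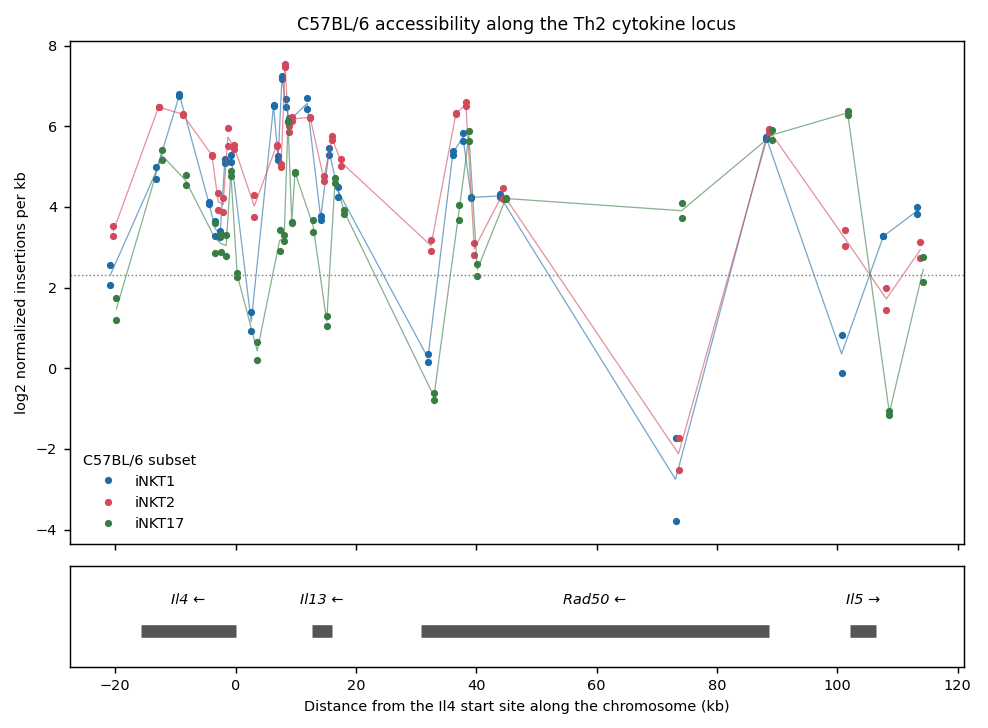
Log2 normalized insertions per kb of the 28 regions in C57BL/6 mice (vertical axis) against the distance of each region from the Il4 start site in kb (horizontal axis), with iNKT1, iNKT2 and iNKT17 libraries as points shifted by 0.5 kb for visibility, lines through the means of 2 libraries, and the 4 gene bodies with their direction below. The dotted line marks a linear value of 5. iNKT17 values lie below the others in most regions from Il4 to Il13 and above them in regions 24 and 26.

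iNKT17 cells accounted for most of the called differences. Of 27 regions tested, 12 were called higher in iNKT2 than in iNKT17 cells and 2 lower (44.4% and 7.41%), where 7.72% and 8.49% of all regions tested were called. Of 26 regions tested, 9 were called lower in iNKT17 than in iNKT1 cells and 2 higher (34.6% and 7.69%), against 9.72% and 10.8% of all regions. Between iNKT2 and iNKT1 cells, 4 of 27 were called higher in iNKT2 and 0 lower (14.8% and 0.0%), against 8.71% and 7.33%. In that comparison 21 regions had an unadjusted p under 0.05 in limma, a share that was not counted over all regions. At an adjusted p under 0.1 without the fold threshold, 14 were higher and 7 lower in iNKT2 cells. Of all regions tested, 55.2% passed that limit in either direction. In all, 17 regions were called in at least 1 of the 3 comparisons and 11 in none. The same share was not counted over all regions of the table, so the 17 cannot be set against a background. The median log2 difference over the regions tested was 0.32 for iNKT2 minus iNKT1, 1.32 for iNKT2 minus iNKT17 and -0.99 for iNKT17 minus iNKT1, and over all regions of the table tested it was -0.01, 0.03 and -0.01. With a pseudocount of 5 on the linear values, which shrinks differences of low regions, the calls of regions 2, 9, 19 and 26 between iNKT2 and iNKT1 cells were lost, as were those of regions 1, 3, 11 and 19 between iNKT2 and iNKT17 and of regions 11, 16, 22 and 27 between iNKT17 and iNKT1 cells.

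Called against both other subsets, 7 regions were lower in iNKT17 cells (25.0%, against 2.4% of all regions), namely regions 3, 8, 10, 11, 13, 15 and 16, which run from the 3′ side of Il4 to Il13. In the same way, regions 9 and 19 were higher in iNKT2 cells (7.14% against 3.4%) and regions 24 and 26 were higher in iNKT17 cells (7.14% against 6.14%). None was higher in iNKT1 than in both other subsets (0.0% against 4.66%). Regions 9 and 19 passed the accessibility limit through iNKT2 and region 24 through iNKT17 cells alone, so only these directions could be called. With the pseudocount of 5, regions 3, 11 and 16 were no longer called lower in iNKT17 cells against both others. Regions 9 and 19 were then no longer called higher in iNKT2 than in iNKT1 cells.

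**Figure D2:**
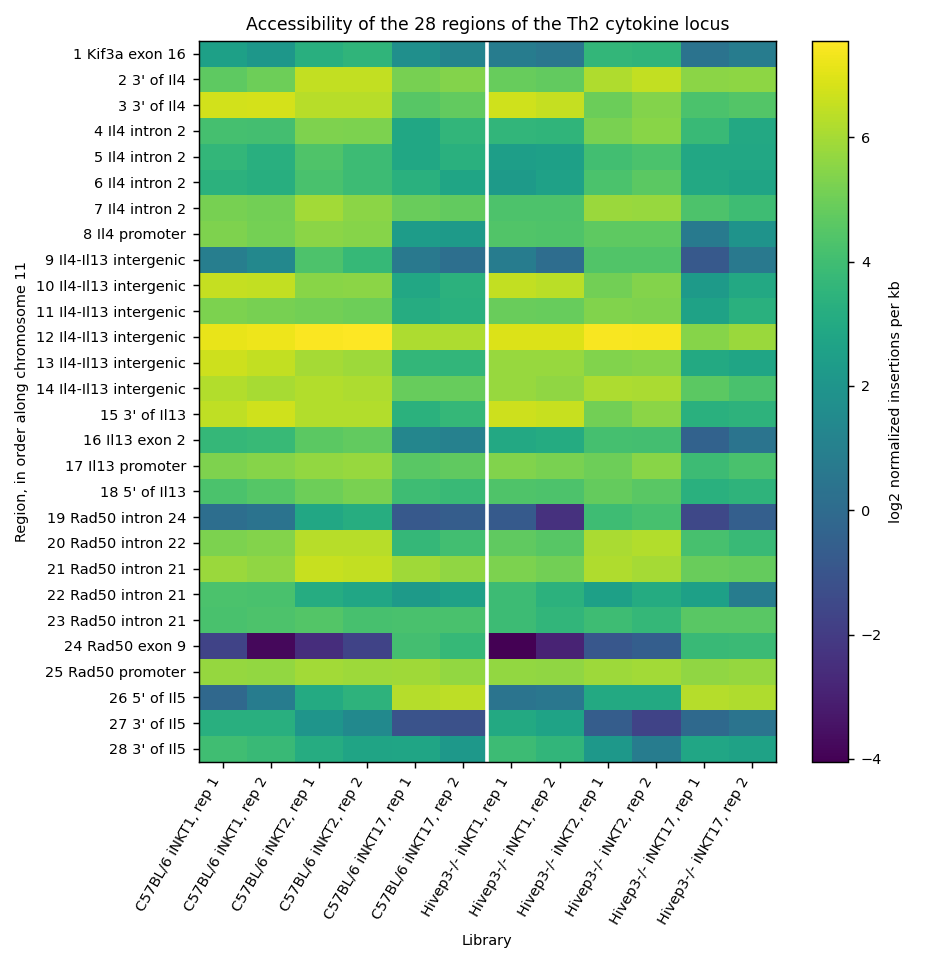
Log2 normalized insertions per kb (color) of the 28 regions (rows, in order along chromosome 11) in each of the 12 libraries (columns, C57BL/6 left and Hivep3-/- right of the white line). Regions 10 to 16 are darker in iNKT17 libraries, and regions 24 and 26 are brightest there.

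At Il4, which encodes the cytokine that drives and marks type 2 responses, the promoter was open in iNKT1 as well as iNKT2 cells. Region 8 (chr11:53618197-53618696), which covers the start site and exon 1, was 5.30 and 5.12 in the C57BL/6 iNKT1 libraries, 5.54 and 5.43 in iNKT2 and 2.35 and 2.27 in iNKT17. The iNKT17 libraries were below all others, whereas the iNKT1 and iNKT2 libraries lay close together. It was lower in iNKT17 than in iNKT2 cells by 3.17 ± 0.28 (difference of log2 values ± SE, 9.01-fold, adjusted p = 1.06e-06) and than in iNKT1 cells by 2.90 ± 0.28 (7.45-fold, adjusted p = 1.37e-06). Between iNKT2 and iNKT1 cells the difference was 0.27 ± 0.28 (adjusted p = 0.447).

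Within Il4 and on its 3′ side the regions differed in which subset was highest. The 4 regions of intron 2, regions 4 to 7, were highest in iNKT2 cells, of which region 4 was called, with a mean of 5.28 in iNKT2 against 3.22 in iNKT17 cells (4.17-fold). Regions 6 and 7 lie within 1000 bp of the start of another, inner Il4 transcript. Region 6 was 4.22 and 3.88 in iNKT2, 3.40 and 3.25 in iNKT1 and 3.31 and 2.78 in iNKT17 libraries. Region 7 was 5.95 and 5.52 in iNKT2, 5.18 and 5.08 in iNKT1 and 4.89 and 4.77 in iNKT17 libraries. In both, the iNKT2 libraries lay above all others, and neither was called. Libraries of pairs of C57BL/6 subsets did not overlap in 72.8% to 75.8% of all regions tested, so separation alone does not set a region apart. Region 2 (chr11:53605616-53606115), 12.8 kb downstream of the Il4 start, was 6.47 and 6.48 in iNKT2, 4.69 and 5.00 in iNKT1 and 5.15 and 5.42 in iNKT17 libraries. It was higher in iNKT2 than in iNKT1 cells by 1.63 ± 0.14, which at 3.09-fold was just past the threshold, and without C57BL/6 iNKT1 replicate 1 or with the pseudocount of 5 the 1.48 was not called. Region 3 (chr11:53609594-53610093), 8.8 kb downstream of the start, had another order: 6.74 and 6.81 in iNKT1, 6.29 and 6.31 in iNKT2 and 4.54 and 4.78 in iNKT17 libraries. The iNKT17 value was 4.34-fold below that of iNKT1 (adjusted p = 5.63e-08) and 3.12-fold below that of iNKT2 cells. The latter was 1.52 and not called without C57BL/6 iNKT17 replicate 1. Region 1 (chr11:53598109-53598608), in exon 16 of the neighboring kinesin gene Kif3a, was 3.28 and 3.53 in iNKT2, 2.55 and 2.07 in iNKT1 and 1.74 and 1.20 in iNKT17 libraries.

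The 6 regions between Il4 and the 3′ side of Il13 included the most open of the locus. Region 12 (chr11:53626632-53627131) was 7.17 and 7.25 in iNKT1, 7.48 and 7.55 in iNKT2 and 6.12 and 6.12 in iNKT17 libraries. It had the highest mean of the regions assigned to Il4 and to Il13 over all 12 libraries. The iNKT17 level was lower by 1.40 ± 0.09 than that of iNKT2 cells (2.64-fold, adjusted p = 1.24e-07), which is under the 3-fold threshold. Region 9, 3.1 kb upstream of the Il4 start, had another pattern. It was 4.29 and 3.75 in iNKT2, 0.92 and 1.39 in iNKT1 and 0.66 and 0.20 in iNKT17 libraries, so that the iNKT2 libraries alone lay above the accessibility limit. It was tested through iNKT2 cells alone, so only a higher iNKT2 level could be called. The difference was 2.87 ± 0.45 from iNKT1 (7.31-fold, adjusted p = 0.000151) and 3.59 ± 0.45 from iNKT17 cells (12.0-fold, adjusted p = 2.21e-05). With the pseudocount of 5 the former was 1.56, which is under 3-fold. Region 10 (chr11:53625229-53625728) was highest in iNKT1 (6.52 and 6.50), intermediate in iNKT2 (5.50 and 5.54) and lowest in iNKT17 libraries (2.90 and 3.43), a fall of 10.2-fold from iNKT1 to iNKT17 cells (adjusted p = 2.96e-08). Regions 11 and 13 were called lower in iNKT17 than in both other subsets as well, by 3.50- to 7.74-fold, and region 14 was lower without reaching the fold threshold.

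At Il13, the cytokine of mucus production and airway responses, the promoter was open in every subset. Region 17 (chr11:53634444-53634943), over the start site and exon 1, was 5.30 and 5.45 in iNKT1, 5.65 and 5.75 in iNKT2 and 4.58 and 4.72 in iNKT17 libraries. The iNKT17 libraries were the lowest, by 1.05 ± 0.16 against iNKT2 cells (2.07-fold, adjusted p = 0.000133), and were not called. Region 16 (chr11:53633065-53633564), over exon 2, separated the subsets more: 4.63 and 4.77 in iNKT2, 3.68 and 3.77 in iNKT1 and 1.29 and 1.04 in iNKT17 libraries. The groups did not overlap, as in most regions tested. iNKT17 was lower than iNKT2 cells by 3.54 ± 0.26 (11.6-fold, adjusted p = 2.75e-07) and than iNKT1 cells by 2.56 ± 0.26 (5.90-fold, adjusted p = 2.62e-06). Region 15, just 3′ of Il13, was 6.43 and 6.70 in iNKT1, 6.20 and 6.24 in iNKT2 and 3.38 and 3.68 in iNKT17 libraries, a fall of 8.21-fold from iNKT1 to iNKT17 cells. Region 18, 1.5 kb upstream of the start, was 5.01 and 5.20 in iNKT2, 4.26 and 4.51 in iNKT1 and 3.94 and 3.81 in iNKT17 libraries and was not called.

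Rad50 encodes a subunit of the complex that holds broken DNA ends, and its promoter did not separate the subsets. Region 25 (chr11:53707111-53707610), over the start site and exon 1, was 5.73 and 5.69 in iNKT1, 5.92 and 5.87 in iNKT2 and 5.92 and 5.66 in iNKT17 libraries. The iNKT2 minus iNKT17 difference was 0.11 ± 0.11 (adjusted p = 0.433). In contrast, the introns at the 3′ end of the gene varied. Region 19 (chr11:53650888-53651387), in intron 24, was 2.90 and 3.18 in iNKT2, 0.15 and 0.36 in iNKT1 and -0.78 and -0.61 in iNKT17 libraries. As in region 9, iNKT2 alone was above the accessibility limit, so only a higher iNKT2 level could be called. The differences were 2.78 ± 0.55 from iNKT1 (6.88-fold, adjusted p = 0.000898) and 3.74 ± 0.55 from iNKT17 cells (13.3-fold, adjusted p = 8.41e-05). With the pseudocount of 5 both differences were under 3-fold. Region 20, in intron 22, had means of 6.31 in iNKT2, 5.33 in iNKT1 and 3.87 in iNKT17 cells and was called between iNKT2 and iNKT17 cells (5.41-fold). Region 22, in intron 21, was instead highest in iNKT1 cells, with a mean of 4.24 against 2.44 in iNKT17 cells (3.46-fold, adjusted p = 0.00241). Regions 21 and 23 of the same intron were not called.

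Region 24 (chr11:53692035-53692534), over Rad50 exon 9, was open in iNKT17 cells alone. It was 4.10 and 3.71 in iNKT17, -1.72 and -3.79 in iNKT1 and -2.52 and -1.72 in iNKT2 libraries. The -3.79 is the lowest value that occurs in its library, so the size of the fold depends on the authors' offset and is not given. iNKT17 was called higher than iNKT1 (adjusted p = 5.3e-06) and than iNKT2 cells (adjusted p = 1.89e-05). Its libraries did not overlap with the others, as in most regions tested. The accessibility limit was passed through iNKT17 alone, with linear means of 15.1 against 0.188 in iNKT1 and 0.239 in iNKT2 cells. Only a higher iNKT17 level could therefore be called. The annotation places no start site of the 4 genes within 1000 bp of it.

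Il5, which encodes the growth factor of eosinophils, had its upstream region most open in iNKT17 cells. Region 26 (chr11:53719638-53720137), centered 0.9 kb upstream of the Il5 start, was 6.28 and 6.38 in iNKT17, 3.03 and 3.44 in iNKT2 and -0.11 and 0.82 in iNKT1 libraries. The 3 subsets were separated in steps: iNKT2 exceeded iNKT1 cells by 2.87 ± 0.27 (7.34-fold, adjusted p = 1.95e-06) and iNKT17 exceeded iNKT2 cells by 3.10 ± 0.27 (8.59-fold, adjusted p = 9.23e-07). The first of these steps was 1.19, and not called, with the pseudocount of 5. From iNKT1 to iNKT17 cells the difference was 5.98 ± 0.27 (63.0-fold, adjusted p = 2.16e-09). Region 27 (chr11:53726581-53727080), 6.0 kb downstream of the start and past the 3′ end of the gene, had the reverse order. It was 3.28 and 3.27 in iNKT1, 2.00 and 1.44 in iNKT2 and -1.06 and -1.15 in iNKT17 libraries, and iNKT17 was lower than iNKT1 cells by 4.38 ± 0.45 (20.8-fold, adjusted p = 2.69e-06). The linear means of region 27 were 9.67 in iNKT1 and 0.47 in iNKT17 cells, so this fold rests on a low value. With the pseudocount of 5 the difference was not called. Region 28, 11.7 kb downstream of the start, was also highest in iNKT1 cells (3.99 and 3.82) and was not called. No region of the table lay over the Il5 gene body.

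**Figure D3:**
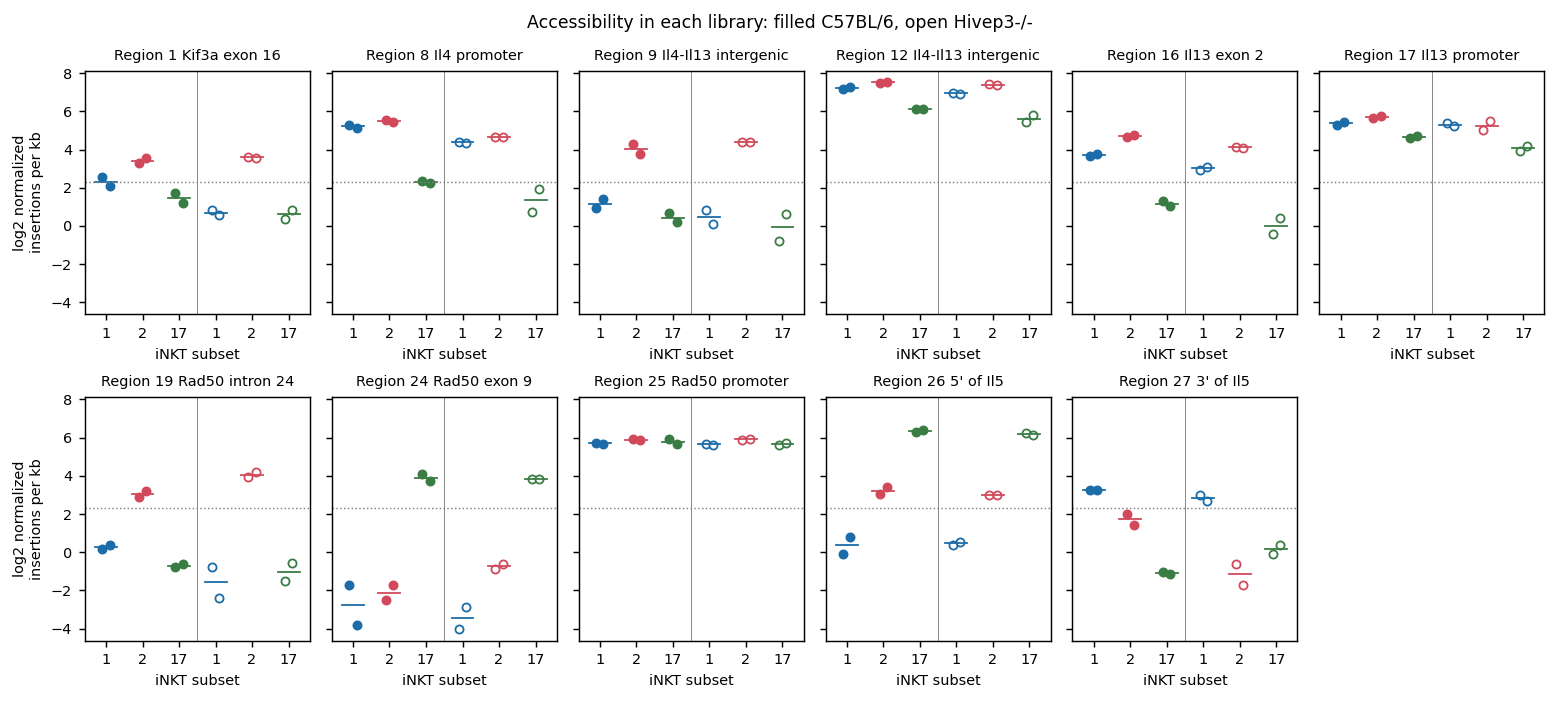
Log2 normalized insertions per kb (vertical axis) of 11 regions (those at the main start of a gene, with the largest ranges between C57BL/6 subsets, called between genotypes or highest of a gene) in each library, by iNKT subset (horizontal axis), filled for C57BL/6 and open for Hivep3-/-, with a bar at the mean of 2 libraries and a dotted line at a linear value of 5. Region 25 is flat, regions 9 and 19 are high in iNKT2 alone and regions 24 and 26 are highest in iNKT17.

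The Hivep3-/- libraries address whether the locus changed when Hivep3 was absent. The same subset was highest in both genotypes for 25 of 28 regions, with iNKT2 highest in 17, iNKT1 in 8 and iNKT17 in 3 regions of Hivep3-/- mice. The lowest mean of Hivep3-/- mice belonged to iNKT17 in 18 regions, to iNKT1 in 8 and to iNKT2 in 2, where the counts in C57BL/6 mice were 23, 5 and 0. Of the regions called between iNKT17 and iNKT1 cells, all 11 of C57BL/6 mice were among the 11 of Hivep3-/- mice in the same direction. For iNKT2 and iNKT17 cells, 13 of 14 called in C57BL/6 mice were among the 17 called in Hivep3-/- mice, and for iNKT2 and iNKT1 cells 3 of 4 were among 9. Agreement between the genotypes was not counted over all regions of the table, so it cannot be called particular to the locus. Within Hivep3-/- mice, 7 of 27 regions were higher and 2 lower in iNKT2 than in iNKT1 cells (background 8.54% and 8.77%). In the other comparisons, 15 of 27 were higher and 2 lower in iNKT2 than in iNKT17 cells (7.33% and 8.25%), and 2 of 25 were higher and 9 lower in iNKT17 than in iNKT1 cells (9.83% and 9.48%). Against both other subsets, 1 region was higher in iNKT1 (background 5.44%), 5 in iNKT2 (3.4%) and 2 in iNKT17 cells (5.59%), and 6 were lower in iNKT17 cells (1.63%).

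Between genotypes the differences were small and mostly in one direction. The mean log2 accessibility over the 28 regions was 3.71 in Hivep3-/- and 4.23 in C57BL/6 iNKT1 cells, 4.44 and 4.70 in iNKT2 cells and 3.11 and 3.41 in iNKT17 cells. At the 3-fold threshold 1 of 24 regions tested was lower and 0 higher in Hivep3-/- iNKT1 cells, where 0.264% and 0.89% of all regions tested were called. In iNKT2 cells 0 of 26 were lower or higher (1.2% and 0.474%) and in iNKT17 cells 0 of 22 (0.138% and 0.133%). Averaged over the subsets, 0 of 28 were called in either direction (0.529%). In limma, 12, 10, 9 and 17 regions had an unadjusted p under 0.05 in iNKT1, iNKT2, iNKT17 cells and on the average. The share of all regions under that limit was not counted, so these counts have no background.

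Without the fold threshold, at an adjusted p under 0.1, 9 of 24 regions were lower in Hivep3-/- iNKT1 cells (37.5%, against 3.93% of all regions tested), 8 of 26 in iNKT2 cells (30.8% against 8.16%), 5 of 22 in iNKT17 cells (22.7% against 1.99%) and 14 of 28 on the average of the subsets (50.0% against 9.21%). None was higher in any of these comparisons. The average counts the 6 libraries of a genotype as separate samples, although their titles give 2 mouse numbers. With 1 mean over the subsets for each mouse number, 2 against 2, 8 of 28 regions were lower (3.9% of all regions) and 0 higher, namely regions 1, 3, 7, 8, 12, 13, 16 and 21. The median difference, Hivep3-/- minus C57BL/6, was -0.47 in iNKT1, -0.17 in iNKT2, -0.22 in iNKT17 cells and -0.32 on the average, and over all regions tested it lay between -0.02 and 0.00. Of the regions tested, 23 of 24, 17 of 26, 17 of 22 and 26 of 28 had a lower mean in Hivep3-/- mice. The genotypes did not overlap in 19 of 24 regions in iNKT1 cells, where 53.7% of all regions tested did not overlap, in 19 of 26 in iNKT2 (53.8%) and in 11 of 22 in iNKT17 cells (44.7%).

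**Figure D4:**
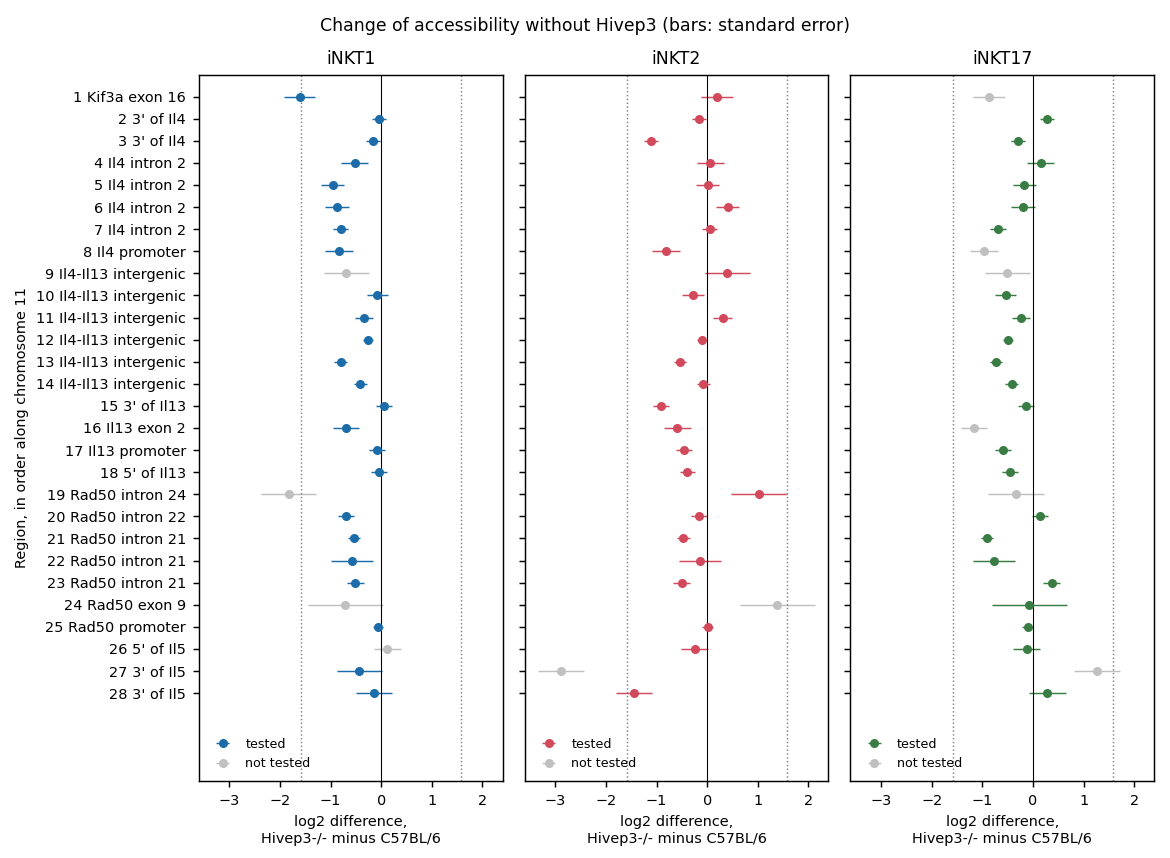
Log2 difference, Hivep3-/- minus C57BL/6 (horizontal axis, bars ± SE), of each region (vertical axis) in iNKT1, iNKT2 and iNKT17 cells, with regions below the accessibility limit in both genotypes in gray and dotted lines at 3-fold. In iNKT1 cells 23 of the 24 tested points lie left of zero, and region 1 alone is past the 3-fold line among the tested points.

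The Il4 promoter, region 8, was among the regions that were lower on the average of the subsets. In Hivep3-/- mice it was 4.39 and 4.37 in iNKT1, 4.68 and 4.67 in iNKT2 and 0.74 and 1.93 in iNKT17 libraries, each below the C57BL/6 libraries of its subset. The averaged difference was -0.87 ± 0.16 (adjusted p = 0.0034). For iNKT1 cells it was -0.83 ± 0.28 (adjusted p = 0.106). For iNKT2 cells it was -0.81 ± 0.28 (adjusted p = 0.0826), and it was not tested in iNKT17 cells, where both genotypes were below the accessibility limit. The Il13 promoter, region 17, was 5.37 and 5.22 in iNKT1, 5.00 and 5.48 in iNKT2 and 3.90 and 4.21 in iNKT17 libraries of Hivep3-/- mice, an averaged difference of -0.38 ± 0.09 (adjusted p = 0.0174). With 1 mean for each mouse number its adjusted p was 0.109. At the inner Il4 start, region 7 was 4.33 and 4.32 in iNKT1, 5.81 and 5.75 in iNKT2 and 4.30 and 3.97 in iNKT17 libraries of Hivep3-/- mice, an averaged difference of -0.48 ± 0.09 (adjusted p = 0.00328), and its iNKT2 libraries overlapped with those of C57BL/6 mice. Region 6 was 2.30 and 2.61 in iNKT1, 4.28 and 4.63 in iNKT2 and 2.95 and 2.75 in iNKT17 libraries, an averaged difference of -0.22 ± 0.14 (adjusted p = 0.326). Region 16 in Il13 exon 2 was 2.95 and 3.11 in iNKT1, 4.14 and 4.08 in iNKT2 and -0.41 and 0.40 in iNKT17 libraries, an averaged difference of -0.82 ± 0.15 (adjusted p = 0.00363). With 1 mean for each mouse number the adjusted p in limma was 0.0262 for region 8, 0.057 for region 7 and 0.0394 for region 16.

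The most open region, region 12, was 6.96 and 6.93 in iNKT1, 7.43 and 7.38 in iNKT2 and 5.46 and 5.79 in iNKT17 libraries of Hivep3-/- mice. Its averaged difference of -0.29 ± 0.05 (adjusted p = 0.00384) was small in size. With 1 mean for each mouse number its adjusted p was 0.0506. Region 3, 3′ of Il4, had a difference in iNKT2 cells, from a mean of 6.30 to 5.19 (-1.11 ± 0.14, adjusted p = 0.00054). Region 13 was lower at an adjusted p under 0.1 in all 3 subsets, with differences of -0.80 ± 0.12 for iNKT1, -0.54 ± 0.12 for iNKT2 and -0.74 ± 0.12 for iNKT17 cells. The same held for region 21 (Rad50 intron 21), with -0.54 ± 0.12 for iNKT1 (adjusted p = 0.017), -0.47 ± 0.12 for iNKT2 (adjusted p = 0.0253) and -0.91 ± 0.12 for iNKT17 cells (adjusted p = 0.00365).

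For the Rad50 promoter and the region upstream of Il5 the averaged difference was within its standard error. The Rad50 promoter, region 25, was 5.68 and 5.62 in iNKT1, 5.86 and 5.95 in iNKT2 and 5.62 and 5.74 in iNKT17 libraries of Hivep3-/- mice, with an averaged difference of -0.05 ± 0.06 (adjusted p = 0.637). Region 26, upstream of Il5, was 0.40 and 0.55 in iNKT1, 2.99 and 2.98 in iNKT2 and 6.24 and 6.16 in iNKT17 libraries, an averaged difference of -0.08 ± 0.15 (adjusted p = 0.788). Region 24 was -4.05 and -2.89 in iNKT1, -0.88 and -0.59 in iNKT2 and 3.82 and 3.84 in iNKT17 libraries, where the -4.05 is again the lowest value of its library. Region 9 was 0.82 and 0.10 in iNKT1, 4.42 and 4.42 in iNKT2 and -0.78 and 0.63 in iNKT17 libraries, and its iNKT2 libraries stayed far above the others.

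Region 1, in Kif3a, was the 1 region called between genotypes. It was 0.82 and 0.57 in Hivep3-/- iNKT1 libraries against 2.55 and 2.07 in C57BL/6, a difference of -1.62 ± 0.31 (3.07-fold, adjusted p = 0.00791) that was just past the fold threshold. The linear mean of the C57BL/6 iNKT1 libraries, 5.04, was just past the accessibility limit through which the region was tested. With pseudocounts of 1 and 5 the difference was -1.19 and -0.59, and not called. It was not tested without C57BL/6 iNKT1 replicate 1 (-1.37) and fell under 3-fold without Hivep3-/- iNKT1 replicate 2 (-1.49, adjusted p = 0.0945). In Hivep3-/- mice it was 3.63 and 3.56 in iNKT2 and 0.38 and 0.82 in iNKT17 libraries.

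Promoter levels of iNKT2 markers were lower in Hivep3-/- iNKT1 and iNKT2 cells, some by little. At Gata3 the mean was 6.42 in C57BL/6 and 6.40 in Hivep3-/- iNKT1 cells. The share of all promoters with a lower mean was not counted. All 6 iNKT2 markers had a lower promoter mean in Hivep3-/- than in C57BL/6 iNKT1 cells, and the linear level summed over their 14 promoter regions was 462.2 and 464.7 against 585.4 and 560.6. In iNKT2 cells 6 of 6 were lower too, with 623.4 and 610.3 against 707.5 and 687.0. In iNKT17 cells 3 of 6 were lower, with 476.1 and 481.3 against 494.9 and 482.6. The summed level of 13 promoter regions of iNKT1 markers was 492.3 and 533.8 in Hivep3-/- against 551.3 and 552.0 in C57BL/6 iNKT2 cells, with 5 of 6 markers lower. Of the iNKT1 markers, 1 of 6 was lower in iNKT1 and 2 of 6 in iNKT17 cells. Of the iNKT17 markers, 2 of 6 were lower in each subset. The Cd4 promoter had a mean of 1.38 in Hivep3-/- and 3.30 in C57BL/6 iNKT1 cells. The part of these shifts in the differences of the locus was not tested.

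Whether the change without Hivep3 differed between subsets was tested with interaction terms. For iNKT2 against iNKT1 cells, 3 of 27 regions were called (11.1%, against 3.06% of all regions tested), for iNKT2 against iNKT17 cells 0 of 27 (1.02%) and for iNKT17 against iNKT1 cells 0 of 26 (1.42%). In limma, 9 and 6 regions of the latter pair of terms had an unadjusted p under 0.05, which was not counted over all regions. The 3 called were region 1 (1.81 ± 0.44, adjusted p = 0.0291), region 19 (2.86 ± 0.78, adjusted p = 0.0457) and region 27 (-2.45 ± 0.64, adjusted p = 0.0384). Region 19 passed the accessibility limit through its iNKT2 groups alone, with linear means of 1.20 and 0.388 in C57BL/6 and Hivep3-/- iNKT1 cells, and region 27 through its iNKT1 groups alone, with 3.36 and 0.480 in iNKT2 cells, so these calls rest in part on values below that limit. Region 19, in Rad50 intron 24, was 3.94 and 4.20 in Hivep3-/- iNKT2 and -0.78 and -2.37 in Hivep3-/- iNKT1 libraries, so that its iNKT2 level was above and its iNKT1 level below that of C57BL/6 mice. Region 27, 3′ of Il5, was -0.61 and -1.72 in Hivep3-/- iNKT2 libraries against 2.00 and 1.44 in C57BL/6, whereas the iNKT1 libraries were at 3.00 and 2.69. The Hivep3-/- iNKT17 libraries were at -1.52 and -0.55 in region 19 and at -0.10 and 0.40 in region 27. Each of the 3 calls was lost when certain single libraries were left out. For region 1 these were C57BL/6 iNKT1 replicate 1 (adjusted p = 0.125), C57BL/6 iNKT2 replicate 1 (0.104) and Hivep3-/- iNKT1 replicate 2 (0.118). For region 19 they were any of the C57BL/6 iNKT1 and iNKT2 libraries, either Hivep3-/- iNKT2 library or Hivep3-/- iNKT1 replicate 2 (0.101 to 0.175), and for region 27 C57BL/6 iNKT1 replicate 1, C57BL/6 iNKT2 replicate 1 or either Hivep3-/- iNKT1 library (0.114 to 0.162).

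Over the 12 libraries, the mean of the locus was compared with the mean of each of 9983 other protein coding genes with at least 3 regions. The genes most like it were Zmynd8 (Pearson r = 0.989), Asap1 (0.988), BC048562 (0.984), Klhdc8b (0.983) and Zfp710 (0.982). Those most like the Il4 promoter alone were Fmnl3 (0.995), Chst10 (0.983), Lef1 (0.980), Gfra1 (0.980) and Cxcr5 (0.975). These are descriptions over libraries that fall into 3 subsets, which such values largely follow, and the same libraries give both sides of each comparison.

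The regions of 20 genes of the type 2 programme elsewhere in the genome were counted in the same comparisons. The list held 288 regions and included the transcription factor genes Gata3, Maf and Zbtb16, the receptor genes Il4ra and Il17rb and the chemokine receptor gene Ccr4. In C57BL/6 mice, 42 of 279 tested were higher and 9 lower in iNKT2 than in iNKT1 cells (15.1% and 3.23%, against 8.71% and 7.33% of all regions). Of the 42, 24 were at Zbtb16, which encodes the factor PLZF and has 86 regions, and without that gene 18 of 194 (9.28%) were higher. Between iNKT2 and iNKT17 cells 11 of 284 were higher and 14 lower (3.87% and 4.93%, against 7.72% and 8.49% of all regions), with a median of 0.22, where the locus had 1.32. Between iNKT17 and iNKT1 cells 31 of 275 were higher and 12 lower (11.3% and 4.36%, against 10.8% and 9.72%). At Gata3, which encodes the main factor of type 2 differentiation, 0 of 14 regions tested were higher and 2 lower in iNKT2 than in iNKT1 cells. Between genotypes, 6 of 240 regions of the list, all at Zbtb16, were lower in Hivep3-/- iNKT1 cells (2.5% against 0.264% of all regions), and 2 of 272, both at Ccr8, were higher in iNKT2 cells (0.735% against 0.474%).

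Another list held 15 effector cytokine genes with 58 regions. At Ifng 5 of 6 regions were called lower and 1 higher in iNKT17 than in iNKT1 cells, and at Il17a 5 of 5 were called higher. In that comparison none was called at Il2, Il3, Csf2, Il9, Il10 and Il21. At Csf2 1 region was called lower in iNKT2 than in iNKT17 cells. Over the list, 11 of 56 were higher and 18 lower in iNKT17 than in iNKT1 cells (19.6% and 32.1%, against 10.8% and 9.72% of all regions). In iNKT2 cells 3 of 49 were higher and 13 lower than in iNKT1 cells (6.12% and 26.5%, against 8.71% and 7.33%), and 8 of 48 were higher and 9 lower than in iNKT17 cells (16.7% and 18.8%, against 7.72% and 8.49%). Between the genotypes, 1 of 40 was called in iNKT2 cells, lower at Ifng, and none in iNKT1 or iNKT17 cells. The 7 neighboring genes of chromosome 11, with 41 regions, had 4 higher and 3 lower in iNKT2 than in iNKT17 cells of 41 tested (9.76% and 7.32%, against 7.72% and 8.49% of all regions), and a median of 0.15. Of the 4, 3 were at Kif3a, whose window of 10 kb on either side holds at least regions 1 and 2 of the locus. The counts of these neighbors are therefore not separate from those of the locus.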

How the data were processed

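ATAC-seq values of 12 libraries were used, from 3 thymic iNKT subsets of C57BL/6 and Hivep3-/- mice. The deposited log2 values are transposase insertions per kilobase in 63309 regions of 500 bp. According to the methods, the authors trimmed reads with Trimmomatic (0.39 per the labels), mapped them to mm10 with the ENCODE pipeline, merged the peaks of all replicates with chromVAR, counted insertions and normalized with voom. The libraries share their upper quantiles, so levels are relative, and counts and depth cannot be recovered.

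Here, genes were taken from GENCODE vM21 and coordinates are 1-based on mm10. A promoter lies within 1000 bp of a start site. A region was tested when 1 of the groups compared had a linear mean of 5 or more. Where 1 group alone reached it, the region could in effect only be called higher in that group. limma 3.58.1 (R 4.3.3) fitted 6 group means over all 12 libraries with empirical Bayes moderation that let the variance depend on the mean, with 6 degrees of freedom from the residuals and 7.17 from the prior. p was adjusted within each comparison over all regions tested. The script was tested on simulated data. Other computations used Python 3.11.15, pandas 2.3.3 and pysam 0.24.0.

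Regions given in every library were those within 1000 bp of the start of any of the 4 genes (its main transcript, and for Il4 an inner start too), the 6 with the largest range of C57BL/6 subset means, those called between genotypes and the highest per gene. Further regions of the locus are given where they were called. The members and lists were chosen with earlier results of these data known.

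The sample titles give the 3 subsets of a genotype 1 mouse number, which is where their pairing comes from. As a check, replicates' deviations from the mean of their group had correlations of 0.120 to 0.167 between subsets within a genotype. Groups of different genotype, which share no mouse, had 0.0911 to 0.174, so the check does not set the paired subsets apart. The alternatives were no filter, pseudocounts of 1 and 5, renewed quantile normalization, median centering, only the compared groups, a replicate block, 50 kb around the genes leaving out each library and, added after seeing the data, 1 mean per genotype and mouse number for the averaged comparison. The RefSeq promoter table held no entry for Rad50, and the sequence of 1 further region is not reported here.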

Additional observations from a re-analysis of the deposited data

Results flagged for a closer look

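In 3 regions of the locus the difference between genotypes differed between iNKT2 and iNKT1 cells by the interaction test, the change in iNKT2 minus that in iNKT1 cells being 1.81 in region 1 (Kif3a exon 16), 2.86 in region 19 (Rad50 intron 24) and -2.45 in region 27 (3′ of Il5). In regions 1 and 19 the Hivep3-/- iNKT1 libraries lay below those of C57BL/6 mice and the iNKT2 means did not, and in region 27 the iNKT2 libraries lay below. Region 19 passed the accessibility limit through its iNKT2 groups alone and region 27 through its iNKT1 groups alone, so that each was below the limit in both genotypes of the other subset, where the genotype difference itself was not tested. With the pseudocount of 5 the values were 0.73, 0.92 and -0.34, and none was called.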

How the results depend on the processing

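With a pseudocount of 5, which shrinks differences of low values, the regions called in C57BL/6 mice fell to 0 between iNKT2 and iNKT1 and to 7 between iNKT17 and iNKT1 cells. In Hivep3-/- mice they fell to 2 for iNKT2 against iNKT1, 11 for iNKT2 against iNKT17 and 7 for iNKT17 against iNKT1 cells, and 0 were called between genotypes in iNKT1 cells or for the interaction of iNKT2 with iNKT1. With a pseudocount of 1 these last counts were 0 and 1. With no filter, 2 were called between genotypes in iNKT1 cells, 1 in iNKT2 cells and 1 for the interaction of iNKT2 with iNKT17. That interaction also had 1 with 50 kb around the genes and 1 with the replicate block, which moved no other count by over 1.5 times. Between genotypes, same-numbered libraries share only a number, with correlations of 0.171, 0.145 and 0.113 in iNKT1, iNKT2 and iNKT17 cells. The cause of these changes was otherwise not tested.

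Leaving out single libraries gave 3 to 5 called regions for C57BL/6 iNKT2 against iNKT1, 13 to 14 for iNKT2 against iNKT17 and 11 to 12 for iNKT17 against iNKT1 cells. In Hivep3-/- mice the ranges were 9 to 10, 13 to 18 and 10 to 11. Between genotypes they were 0 to 1 in each subset and 0 to 0 on the average. In iNKT2 cells 1 region was called without C57BL/6 iNKT2 replicate 2 or Hivep3-/- iNKT2 replicate 1, and in iNKT17 cells 1 without Hivep3-/- iNKT17 replicate 1. For the interactions they were 0 to 3, 0 to 1 and 0 to 0. Without Hivep3-/- iNKT2 replicate 1 the first interaction had 3 calls with the balance turned, 1 higher and 2 lower. An arm left with 1 library was assumed to vary like the others.

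Alternative values were compared for 51 called changes, which are a part of the calls of the locus and not all of them. Of 573 such values, 530 kept their direction and call, 43 kept their direction only and 0 reversed. Of the 43, 22 came from the pseudocount of 5, 3 from that of 1 and 18 from leaving out a library. Over all calls of the locus, more than these 22 were lost with the pseudocount of 5, as the counts above show. The averaged comparison uses all groups, so the fit on only the compared groups gives no separate value. The normalized values limit what can be said of low regions, whose folds depend on the offset of the logarithm.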

Other observations

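The following genes of the 3 lists were chosen after their values were seen, and concern C57BL/6 mice. At Ccr4, the chemokine receptor gene of type 2 T cells, 5 of 11 regions tested were higher in iNKT2 than in iNKT1 cells, with a median log2 difference of 1.39. At Irf4 5 of 14 were higher and 1 lower, with a median of 1.06, and at Icos, which encodes the receptor used in the second sort, 4 of 16 were higher, with a median of 0.89. At Il22, 3 of 3 regions were higher in iNKT17 than in iNKT1 cells, with a median of 7.09.

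On chromosome 11, both regions of Pdlim4 were higher in iNKT2 than in iNKT1 cells, with a median of 2.12. At Kif3a, which shares at least regions 1 and 2 with the locus, 3 of 7 regions were higher in iNKT2 than in iNKT17 cells, with a median of 1.19. This repeats values of the locus in part. At Aff4, 3 of 7 were higher in iNKT17 than in iNKT1 cells, with a median of 0.76.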
